A study of Oryza sativa with 2 samples.

Results

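MADS-box genes encode transcription factors, and 31 of them were described here in rice leaves. They were taken from a rice gene table as every gene with MADS and a number, with or without the prefix Os, as its symbol or synonym. All 31 were represented on the arrays, among 17905 genes with at least 1 probe set tied to a single gene. The brightest probe set stood for each gene.

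The samples were leaf RNA of OsEATB transgenic rice and of nontransgenic rice, both of the indica cultivar 9311. Each group was 1 array of biotin-labelled RNA from 10 seedlings that had reached the stage of 4 leaves. OsEATB is an ERF-family factor. The labels give neither the promoter of the transgene nor the number of transgenic lines, and its own level was not analysed here. All seedlings were raised at 28 °C on a diluted Murashige and Skoog medium, in days of 14 h of light and 10 h of darkness. The sample titles of both groups name normal conditions. With 1 array per group there is no spread between plants, no test and no p-value, and this limits the precision of every ratio below. In whole leaves, fewer cells of a type and less RNA per cell cannot be told apart.

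MADS-domain proteins bind DNA as dimers and assemble into larger complexes that specify floral organs. B, C, D and E classes act in combination, the B class in lodicules and stamens, the C class in stamens and carpels, the D class in ovules, and the E or SEPALLATA class as partners of the others. Relatives outside these classes act before the flower forms. AP1/FUL and SOC1 relatives promote or time the floral transition, SVP relatives act in meristems and in brassinosteroid responses, and AGL17 relatives include targets of the microRNA miR444. By this background, 16 members were placed in floral organ clades (B, C, D, E, AGL6-like and B-sister) and 15 in vegetative and transition clades (AP1/FUL, SOC1-like, SVP-like, AGL17-like and AGL12-like).

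Values are log2 signals, and ratios are the transgenic minus the nontransgenic log2 signal. A signal under the 40th percentile of its array, at 4.61 on the transgenic and 4.41 on the nontransgenic array, was treated as lying at the floor, and a ratio with 1 side at the floor is a lower bound on the difference. The level filter asked for a signal at or above the array's median, 5.32 transgenic or 5.16 nontransgenic, on 1 array or both. A ratio of 2-fold or more was called a difference. Probe sets bind with different strength, so a signal was set against the percentiles of its own array and not against that of another gene.

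The leaf label stood against its markers: the 4 measured genes of the leaf blade list lay between 15.75 and 16.26 on the transgenic array and between 15.26 and 15.86 on the nontransgenic array. Meristem markers were not uniformly low: OSH1 lay at 3.94, under the floor, on the transgenic array and at 4.64 on the nontransgenic array, but FON1 was bright, at 10.47 transgenic and 10.61 nontransgenic, and OSH6 and OSH43 lay above the floor on both arrays, as given with the floral genes. All 27 spiked hybridisation controls were brighter on the transgenic array, by a median log2 ratio of 0.90. The trimmed mean of the unlogged signals was 500.1 on both arrays, as left by the scaling of the deposited values. Centring on the spiked controls in place of that mean moves the median of all genes to -0.92 and every ratio below by the same step. The actin controls of the array had a 3′ minus 5′ log2 difference of 5.51 transgenic and 4.85 nontransgenic, and the Gapdh controls 2.61 transgenic and 3.26 nontransgenic.

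Of the 31 members, 16 passed the level filter, or 51.61%, against 84.72% of all genes. The share differed between the clades. In the floral organ clades 6 of 16 passed and 1 lay above the 75th percentile on both arrays, and in the vegetative and transition clades 10 of 15 passed and 6 lay above it on both. Among all genes 54.82% lay above it on both arrays. In 5 floral organ members and 4 vegetative members both signals were at the floor, so that no ratio exists for them.

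**Figure D1:**
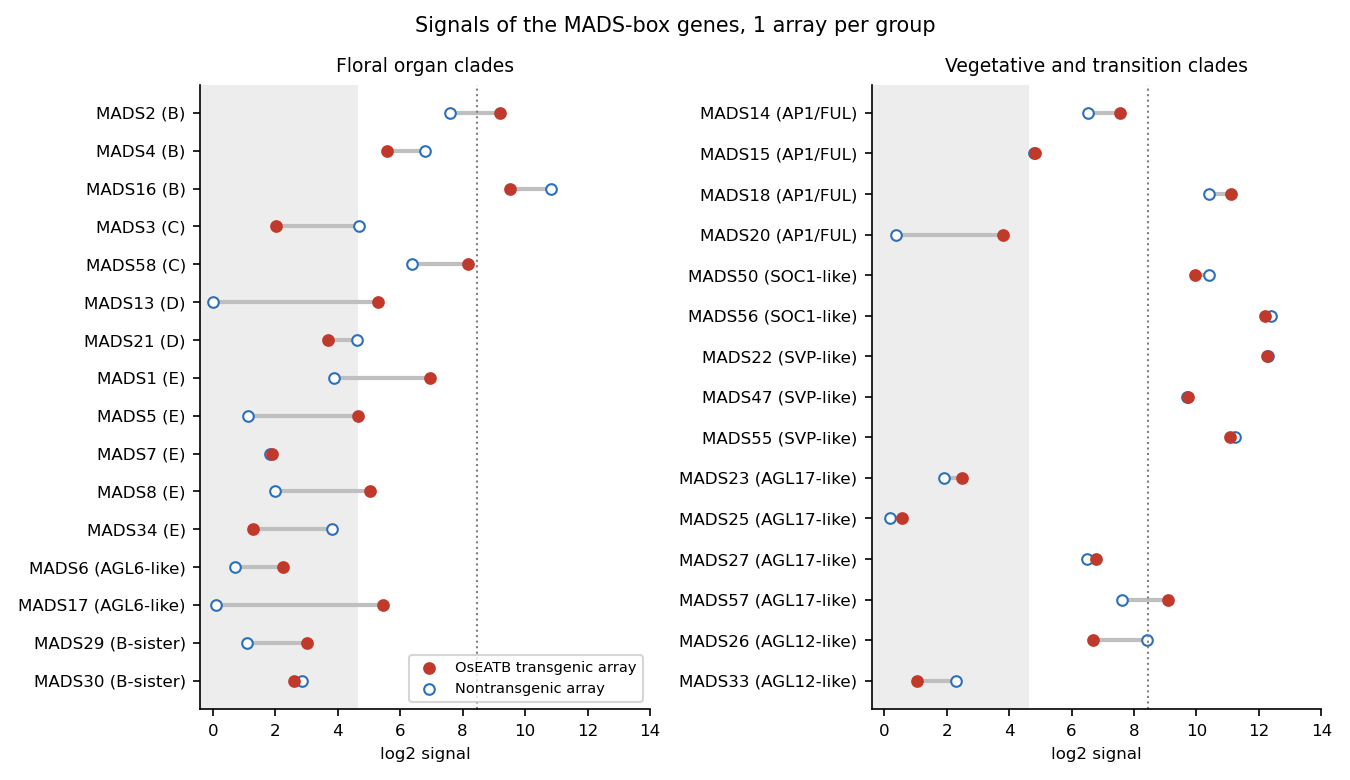
Log2 signal (horizontal axes) of each of the 31 MADS-box genes, filled red for the OsEATB transgenic array and open blue for the nontransgenic array, with 1 array per group and no error bars. Grey shading reaches to the higher of both floors, 4.61, and the dotted line marks the higher 75th percentile, 8.45. Most floral organ genes touch the shading, while the SVP-like and SOC1-like genes lie right of the line, with log2 ratios from -0.45 to 0.01.

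In the transgenic leaves 6 of the 31 members (19.4%) were higher by 2-fold or more and 3 (9.68%) were lower by as much. Among all 17905 genes 5.07% were higher and 3.74% lower, and among the 15170 genes that passed the filter 5.99% were higher and 4.42% lower. The higher members were MADS1, MADS58, MADS2, MADS57, MADS17 and MADS14, and the lower members were MADS26, MADS16 and MADS4. Brightness matters for reading these counts, since 23.2% of the genes that passed the filter but stayed below the 75th percentile on both arrays differed by 2-fold, against 4.82% of the brighter genes. Of the members, 6 of 7 in the dimmer class differed by 2-fold, and 3 of 9 in the brighter class, namely MADS2, MADS57 and MADS16. The dimmer members needed 1 array at a sufficient level to be counted there, so these shares describe the members and test nothing.

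**Figure D2:**
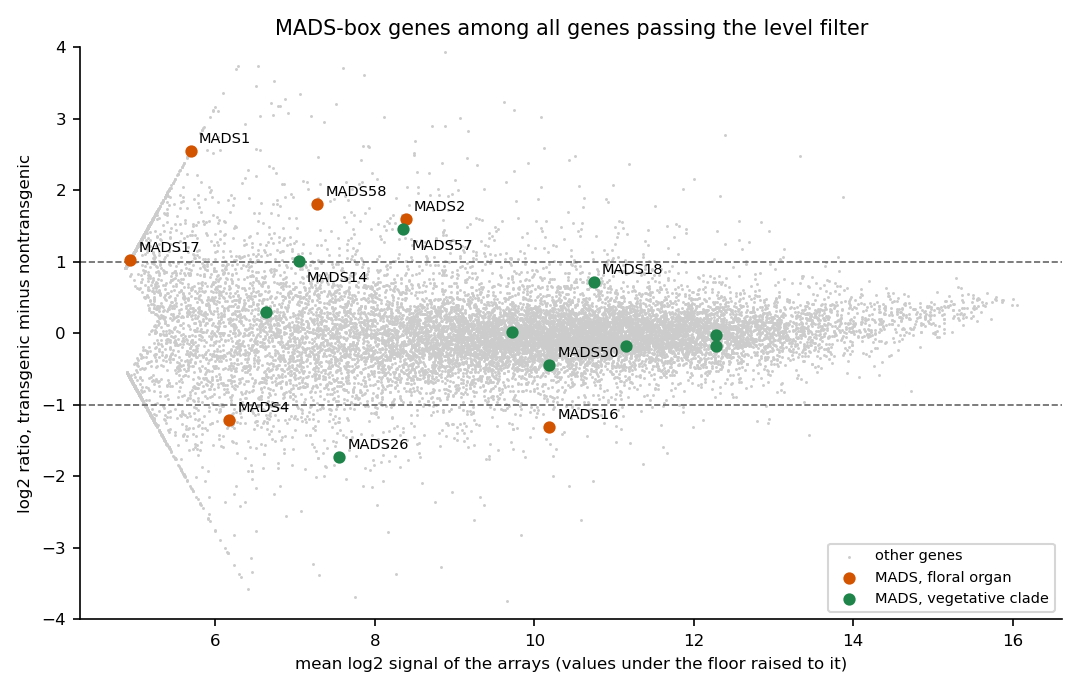
Log2 ratio, transgenic minus nontransgenic (vertical axis), against the mean log2 signal of both arrays after the floor (horizontal axis), for all genes that passed the level filter, with the MADS-box genes in orange (floral organ clades) and green (vegetative and transition clades). Dashed lines mark 2-fold and 42 genes beyond 4 either way are not drawn. MADS1 and MADS17 lie on the diagonal edge formed by nontransgenic signals at the floor. Of the brighter green points, the SVP-like and SOC1-like genes lie between -0.45 and 0.01, MADS18 at 0.71 and MADS57 at 1.45.

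B-class genes differed in opposite directions. MADS2 (LOC4325001), a PISTILLATA-like gene of lodicules and stamens, had a log2 signal of 9.18 on the transgenic array and 7.59 on the nontransgenic array, or 580.5 and 193.0 unlogged. It was 3.01-fold higher, and among 1621 genes of like brightness (mean within 0.5 on the log2 scale) 3.39% had a ratio at least as large in size. MADS4 (LOC4338842), the other PISTILLATA-like gene, stood at 5.57 transgenic and 6.78 nontransgenic, 2.32-fold lower. Ratios of that size were held by 17.3% of genes of like brightness, and with a pseudocount in place of the floor MADS4 had a log2 ratio of -0.84, under 2-fold.

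MADS16 (LOC4342047), the AP3-like gene whose protein pairs with those of MADS2 and MADS4, was bright on both arrays, at 9.52 transgenic and 10.84 nontransgenic. It was the 1 floral organ member above the 75th percentile on both arrays, although its known role is in the flower. It was 2.49-fold lower, with unlogged signals of 736.3 transgenic and 1837 nontransgenic, and 1.95% of 2562 genes of like brightness had a ratio as large. A single probe set read each of the 3 B-class genes, so that no second reading exists within the arrays.

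Among C-class genes, MADS58 (LOC4338067), which acts in floral meristem determinacy, was at 8.17 transgenic and 6.37 nontransgenic, 3.49-fold higher. Of 1377 genes of like brightness 4.87% had a ratio as large. MADS3 (LOC9271572), its paralog of stamen identity, had 2.02 on the transgenic array, under the floor, and 4.69 on the nontransgenic array, just above it. The floor leaves it a log2 ratio of at most -0.07, so MADS58 was measured on both arrays and its paralog was not resolved.

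Both D-class genes of the ovule failed the filter. MADS13 (LOC4351753) had 5.30 on the transgenic array and 0.00 on the nontransgenic array, a lower bound of 0.88 on the log2 scale, below 2-fold. MADS21 (LOC4324888) had 3.70 transgenic, under the floor, and 4.62 nontransgenic. Neither gene was resolved in leaf by these arrays.

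Of 5 SEPALLATA genes 1 passed the filter. MADS1 (LOC4332059), known as LHS1 and active in spikelet meristem and lemma identity, stood at 6.96 on the transgenic array and at 3.89, under the floor, on the nontransgenic array. It was at least 5.84-fold higher, the largest ratio in size of the 16 members that passed. Among 1342 genes of like brightness 35% differed by 2-fold, and 2.09% had a ratio as large as that of MADS1. With the floor raised to the median its log2 ratio was 1.80, and with the pseudocount it was 1.74.

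The other SEPALLATA genes were dim. MADS8 (LOC4347517), which acts in the inner floral organs, had 5.03 transgenic and 1.99 nontransgenic, a lower bound of 0.62 on the log2 scale. MADS5 (LOC4340218) had 4.65 transgenic and 1.13 nontransgenic, a lower bound of 0.23. MADS7 (LOC4346134), the close paralog of MADS8, was under the floor on both arrays, at 1.91 transgenic and 1.83 nontransgenic, as was MADS34 (LOC4334141), a gene of panicle and spikelet meristems, at 1.30 transgenic and 3.80 nontransgenic.

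AGL6-like genes, which act beside the E class in floral meristems, were near the background. MADS17 (LOC4336762) had 5.44 transgenic and 0.09 nontransgenic, at least 2.03-fold higher. That call lay at the threshold: the log2 ratio was 0.28 with the floor at the median, 0.86 after quantile normalization and 0.62 after lowess centring, and 44.8% of 1005 genes of like brightness had a ratio as large. MADS6 (LOC4330328) lay under the floor on both arrays, at 2.24 transgenic and 0.71 nontransgenic. The B-sister genes were under it as well. MADS29 (LOC4328443), which acts in the nucellus of the developing seed, had 3.02 transgenic and 1.10 nontransgenic, and MADS30 (LOC4341786) had 2.59 transgenic and 2.84 nontransgenic.

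Over the 6 floral organ members that passed, the median log2 ratio was 1.31, against -0.01 over all 15170 passing genes. Over all 16 floral organ members it was 0.00, since 5 had no ratio. MADS2, MADS16, MADS58 and MADS4 reached the median of both arrays, 2 of them higher and 2 lower in the transgenic leaves, while MADS1 and MADS17 passed through the transgenic array alone. The median of the passing members is therefore a description of those 6 genes, and no reading of the whole clade follows from it.

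Markers of other organs were read beside these floral genes. Of 6 measured shoot apical meristem markers, the KNOX genes OSH6, at 5.97 transgenic and 4.66 nontransgenic, and OSH43, at 5.84 transgenic and 4.74 nontransgenic, were at least 2-fold higher, and 0 were lower. Both KNOX genes were dim, with nontransgenic signals just above the floor of 4.41. They belong to the dimmer passing class, where 23.2% of genes differed by 2-fold either way. Over all genes 5.07% were higher and 3.74% lower. The summed signal of the 6 markers was 10.64 transgenic and 10.71 nontransgenic on the log2 scale, and FON1 made up most of it. WOX4 was under the floor on both arrays. Of 7 measured anther and pollen markers 0 were higher and 1, OSC6, was lower, and their summed signal was 9.91 transgenic and 9.93 nontransgenic. Root markers had 0 higher and 1 lower of 3 measured, but their summed signal was 9.63 transgenic and 8.89 nontransgenic. Of these, LSI1 had 9.57 transgenic and 8.62 nontransgenic, a log2 ratio of 0.94, just under 2-fold. Seed markers had 1 higher and 0 lower of 9 measured, and summed to 12.64 transgenic and 12.81 nontransgenic. The seed genes GLUA2 (11.23 transgenic, 10.96 nontransgenic) and GLB1 (11.87 transgenic, 12.27 nontransgenic) were bright in these leaves. The part of such cells in the ratios of the floral MADS-box genes was not tested.

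SVP-like and SOC1-like genes were bright on both arrays. All 5 lay above the 75th percentile on both arrays, and their log2 ratios ran from -0.45 to 0.01 with a median of -0.19. Of the 5, 0 differed by 2-fold, where 4.82% of all brighter genes did. A count of 0 among 5 is near that share and sets these genes apart from other bright genes in no way. MADS22 (LOC4330805), an SVP relative that acts in meristems and in brassinosteroid responses, had 12.26 transgenic and 12.30 nontransgenic. Its probe set may hybridise to several transcripts, by its type. MADS47 (LOC4331872), a repressor of brassinosteroid responses, had 9.72 transgenic and 9.71 nontransgenic, and MADS55 (LOC4340495), the close relative of MADS22, had 11.06 transgenic and 11.25 nontransgenic. These 3 genes lay within 0.19 of equality on the log2 scale, as did the SOC1-like gene MADS56. Ratios at least as large in size were held by 48.6% of genes of like brightness for MADS55. The shares were 90.4% for MADS22 and 97.8% for MADS47.

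MADS50 (LOC4331445), the rice SOC1 that promotes flowering, had 9.96 transgenic and 10.41 nontransgenic, a log2 ratio of -0.45. Among genes of like brightness 19% had a ratio at least as large in size. MADS56 (LOC4349237), its relative reported to delay flowering under long days, had 12.19 transgenic and 12.37 nontransgenic. The log2 ratio of MADS56 was -0.19, and 46.9% of genes of like brightness had one at least as large in size. Both ratios were below 0 and under 2-fold. Only with centring on the spiked controls did MADS50, MADS56 and MADS55 pass 2-fold, at log2 ratios of -1.36, -1.09 and -1.09, beside the shift of all genes by about as much.

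Of the 4 AP1/FUL genes, which are switched on as the meristem turns to flowering, 2 passed the filter, MADS14 and MADS18, both with a ratio above 0; centred on the spiked controls MADS18 had -0.19 and MADS14 had 0.10. MADS18 (LOC4343851), which is widely expressed and promotes flowering, had 11.10 transgenic and 10.39 nontransgenic, 1.64-fold higher and under the threshold. Of 2573 genes of like brightness 6.3% had a ratio as large. The gene table also lists MADS2 and MADS28 as synonyms of this gene, and its number was settled by the gene that carries MADS2 alone.

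MADS14 (LOC4334140), a target of florigen signalling, was read by 4 probe sets. The brightest had 7.55 transgenic and 6.54 nontransgenic, a log2 ratio of 1.01 that only just reaches 2-fold, and it may hybridise to several transcripts. Another had 6.30 transgenic and 4.52 nontransgenic, with a log2 ratio of 1.79, and the third had 5.60 transgenic and 3.72 nontransgenic, a lower bound of 1.19. The fourth was under the floor on both arrays. The 3 probe sets above the floor thus all read higher in the transgenic leaves, though they read the same RNA and are not replicates. Averaged over all 4, the log2 ratio was 0.74, and with the pseudocount it was 0.81.

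MADS15 (LOC4342214), the paralog of MADS14, did not pass the filter. Its brightest probe set had 4.83 transgenic and 4.80 nontransgenic, and a second had 3.68, under the floor, on the transgenic array and 5.52 on the nontransgenic array, so its probe sets gave no common direction. MADS20 (LOC4352275) was under the floor, at 3.80 transgenic and 0.38 nontransgenic. MADS14 and MADS34 are direct neighbours in the reference gene order, with 0 genes between them, and so are MADS33 and MADS13. In neither pair did both genes pass the filter.

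AGL17-like genes held 1 called member. MADS57 (LOC4330621), a miR444 target that acts on tillering and represses the strigolactone receptor gene D14, had 9.08 transgenic and 7.63 nontransgenic, or 540.9 and 197.5 unlogged. It was 2.74-fold higher. Of 1612 genes of like brightness 4.34% had a ratio as large. Under the pseudocount, quantile normalization, median centring and lowess centring its log2 ratio ran from 1.32 to 1.53. Centred on the spiked controls it was 0.55. The settings of floor, filter and probe sets could not alter the ratio, since MADS57 has 1 probe set and lies well above the floor. D14 itself had 14.74 transgenic and 14.44 nontransgenic, a log2 ratio of 0.30.

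MADS27 (LOC4329771), another miR444 target, known for nitrate responses of roots, had 6.79 transgenic and 6.49 nontransgenic. Its log2 ratio was 0.30, where 66.4% of genes of like brightness had one as large, and its second probe set was under the floor on both arrays. MADS23 (LOC4345644), the third miR444 target among the members, was under the floor on both arrays, at 2.49 transgenic and 1.91 nontransgenic, and MADS25 (LOC4335427), a gene of root development, had 0.58 transgenic and 0.19 nontransgenic. MADS57 and MADS27 were thus the measurable genes of the clade, with log2 ratios of 1.45 and 0.30.

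AGL12-like genes held the largest negative ratio of the members that passed. MADS26 (LOC4344493), studied in rice as a regulator of stress responses, had 6.68 transgenic and 8.42 nontransgenic, or 102.8 and 342.6 unlogged. It was 3.33-fold lower, and 4.88% of 1394 genes of like brightness had a ratio as large. MADS33 (LOC4351752) was under the floor on both arrays, at 1.07 transgenic and 2.31 nontransgenic.

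Over the 10 vegetative and transition members that passed, the median log2 ratio was -0.01, equal to that of all passing genes to 2 decimals. Of these 10, 2 were at least 2-fold higher, MADS57 and MADS14, and 1 was at least 2-fold lower, MADS26. Among all passing genes 5.99% were higher and 4.42% lower by as much. The difference between the floral organ and the vegetative clades was not tested.

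**Figure D3:**
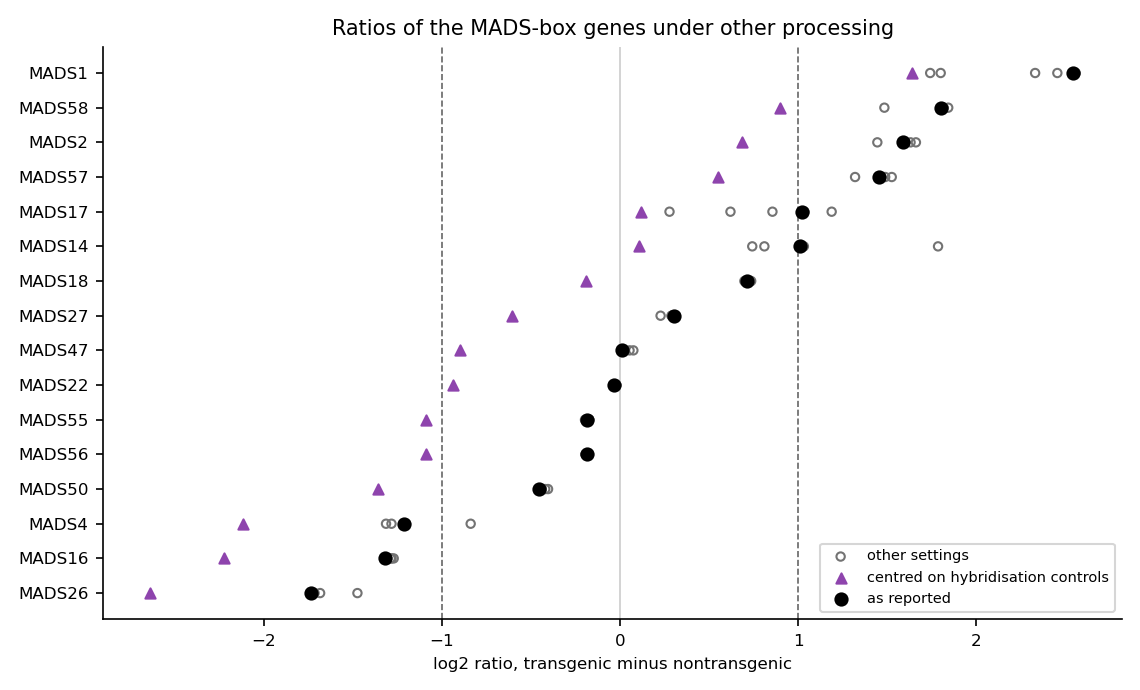
Log2 ratio, transgenic minus nontransgenic (horizontal axis), of the 16 MADS-box genes that passed the level filter, with the reported value in black, other settings as open circles and centring on the spiked hybridisation controls as purple triangles; dashed lines mark 2-fold, and values without a floor are not drawn. MADS58, MADS2, MADS57, MADS16 and MADS26 keep their side of the dashed lines in every setting drawn as circles, while MADS17, MADS14 and MADS4 cross them.

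Genes that act beside the family in flowering were read from lists drawn up by function. Of 21 symbols for florigen and photoperiod genes 11 had a measured gene, of which 1 was at least 2-fold higher and 0 lower. Among all genes 5.07% were higher and 3.74% lower by as much. Hd3a (LOC4340185), the florigen that acts upstream of MADS14 and MADS15, had 5.89 transgenic and 3.43 nontransgenic, under the floor. It was a dim gene with a bound of at least 2.77-fold higher. Hd3a belongs to the dimmer passing class, where 23.2% of genes differed by 2-fold either way. Hd1 (LOC4340746), a photoperiod regulator of Hd3a, had 6.33 transgenic and 5.34 nontransgenic, a log2 ratio of 0.98, just under 2-fold.

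The other photoperiod genes differed less. DTH8, a flowering repressor under long days, had 7.32 transgenic and 6.80 nontransgenic. The clock-associated gene GI had 12.45 transgenic and 12.74 nontransgenic, and the phytochrome gene PHYA had 11.42 transgenic and 11.94 nontransgenic, the lowest log2 ratio of the list at -0.52. The list median was 0.12.

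Of 20 symbols for panicle meristem and floral organ genes outside the family, 6 had a measured gene, and 0 differed by 2-fold. The shares over all genes were 5.07% higher and 3.74% lower. RFL, the rice LEAFY relative, had 4.53, under the floor, on the transgenic array and 5.46 on the nontransgenic array. DL, which acts in carpels and in the leaf midrib, had 5.30 transgenic and 3.86 nontransgenic, with the nontransgenic side under the floor and a lower bound of 0.89. FON1, a receptor kinase gene of floral meristem size, was the 1 gene of this list above the 75th percentile on both arrays.

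**Figure D4:**
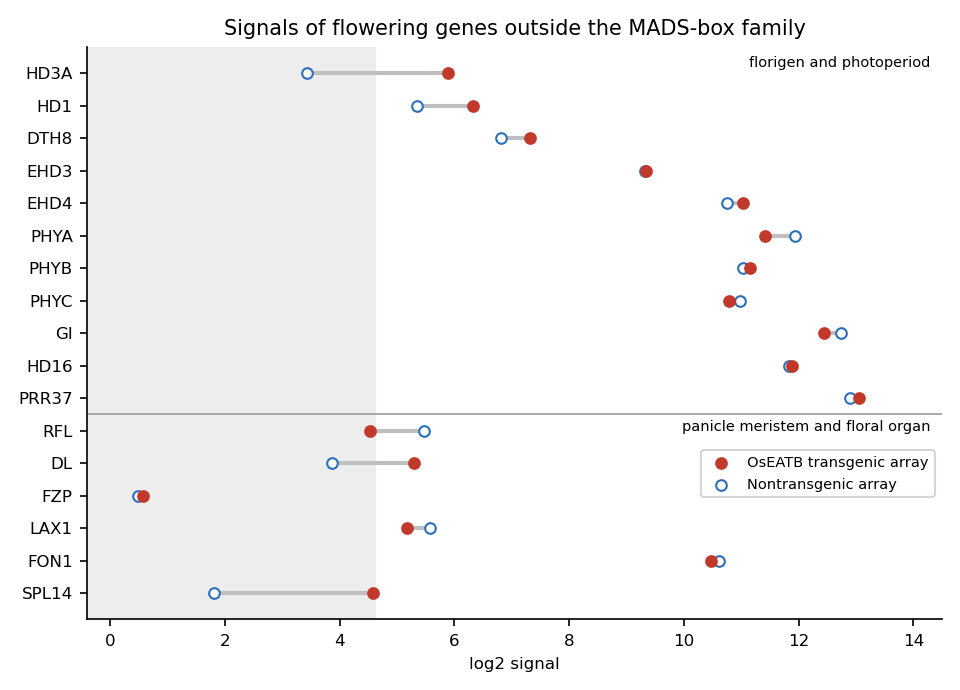
Log2 signal (horizontal axis) of 11 florigen and photoperiod genes and 6 panicle meristem and floral organ genes outside the MADS-box family, filled red for the OsEATB transgenic array and open blue for the nontransgenic array, 1 array per group. Grey shading reaches to the higher floor, 4.61; HD3A has its nontransgenic point in the shading and its transgenic point at 5.89, and the photoperiod genes above 9 have points that nearly coincide.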

How the data were processed

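The deposited values are log2 signals per probe set, and the submitters' processing notes name MAS5 as the authors' tool. The sources used here do not state which version was run, nor any detection call. The log2 scale was read from the range of the values and from the equal trimmed means of the unlogged arrays (2% trimmed at each end). Each array held 57381 probe sets, of which 187 controls were set apart. Gene names came from the annotation of the array platform and, by gene number, from a rice reference (assembly ASM3414082v1), which gave 22436 probe sets with 1 gene. The reference served only for names and for gene order. The number of per-sample columns not used was 0.

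The probe set with the highest mean stood for a gene. Signals under the 40th percentile were raised to it, and genes with both signals there were given no ratio and entered medians as 0. A total of 15170 genes passed the level filter. No test was run, because each group is 1 array. On simulated arrays the counting was tested before use, with changes placed only in bright genes read by 1 probe set. That check did not cover changes in dim genes. Python 3.11.15, pandas 2.3.3 and statsmodels 0.14.6 were used.

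The members, clades and lists were chosen with earlier results of these data known. The rule named every member that passed with 2-fold, every measured vegetative member and every passing floral organ member. The members that failed are given too. In the other lists 4 symbols were set aside after their values were seen, because the table ties them to other genes of the same name. Alternatives covered the floor, a pseudocount of 32, scaling, the filter and the choice of probe sets. Sequences were not used here.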

Additional observations from a re-analysis of the deposited data

How the results depend on the processing

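Of 177 values of single members under other settings, 163 stayed on the same side of 2-fold, 11 dropped below it, 3 passed it and 0 reversed among called values. Many of the 163 could not change. The level filter leaves a single ratio as it is, and the choice of probe sets cannot move a gene read by 1 probe set. The count of 163 is therefore no measure of robustness. A median was taken as moved when it shifted by 1.5-fold or more. With members required to reach the 75th percentile, 2 were higher and 1 lower, since this setting keeps only 9 members. The floral organ genes it keeps are MADS2 and MADS16, with opposite log2 ratios of 1.59 and -1.32 and a median of 0.13. Without a level filter the median of the floral organ genes was 0.00, because unmeasured members enter. Centring on the spiked hybridisation controls, added after the data were seen, left 1 member higher and 6 lower, with medians of -0.75 over the members, 0.40 over floral organ genes and -0.92 over vegetative and transition genes, beside a shift of all genes to -0.92. MADS2, MADS58, MADS57, MADS17 and MADS14 then had log2 ratios of 0.68, 0.90, 0.55, 0.12 and 0.10, while MADS1 had 1.64. The share of higher genes among all genes called was 57.54%, against 45.89% after lowess centring. The alternative that kept only genes with MADS as their own symbol was not run, because the table gives these genes as LOC numbers with MADS as a synonym. No paired analysis was possible because each group is 1 array. Dim signals limit what can be read of the floral organ genes.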
